A study of Mus musculus with 7 samples.

Results

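Wnt signalling genes were followed in sorted pancreatic beta cells of early-weaned and suckling mice. The members were chosen by a rule on gene symbols, with earlier results of these data known. They were the ligands (Wnt), the Frizzled receptors and co-receptors (Fzd, Lrp5, Lrp6, Ror1, Ror2) and the secreted antagonists (Dkk, Sfrp). Also taken were the cytoplasmic transducers (Dvl, Axin, Apc, Ctnnb1), the nuclear factors (Tcf7-like genes, Lef1) and the polarity genes Vangl1 and Vangl2. The rule gave 55 of the 19938 genes that the array measured with a probe set of a single symbol. They had 56 probe sets, since Wnt4 had 2 of them. The pattern of symbols also took in Fzd10os, a transcript from the strand opposite Fzd10. No probe set carried the symbol Tcf7 in the annotation used, so Tcf7 was not analysed here. The gene once called Fltp appears below under its symbol Cfap126, with the other pathway genes.

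The weaned group was 3 mice taken from the mother early, at postnatal day 18, and the suckling group was 4 mice left with the mother. Mice of both groups were 25 days old, had the outbred ICR background and carried insulin-Cre and Rosa26-LSL-YFP. In such mice, an insulin promoter drives the Cre recombinase, which switches on a yellow fluorescent protein, so the sort takes any cell in which that promoter has been active. Each mouse gave 2000 to 6000 fluorescent cells, which were hybridised to 1 Affymetrix array after amplification.

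Wnt proteins are secreted lipid-modified ligands that bind Frizzled receptors together with Lrp5 or Lrp6. In the canonical branch this stops a complex built on axin and the product of Apc from marking beta-catenin for destruction, and beta-catenin then joins TCF/LEF factors on target genes. Other branches run through Ror receptors and Vangl proteins and set cell polarity and movement. In the pancreas, Wnt signals are known for their part in growth of the organ and in beta-cell proliferation, and variants near the human gene TCF7L2 are linked to type 2 diabetes.

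Values are log2 of the deposited intensity, and the number of arrays limits their precision. A level shows how bright a probe set is and cannot be compared between genes. As a yardstick for probe sets without a transcript, background was set at 3.27 log2 units, the 95th percentile of 1027 olfactory receptor genes. Median intensity ran from 14.1 to 14.9 over the 7 arrays. Weaned arrays all bear the code L13 in their descriptions and suckling arrays all bear L14, and whatever these codes mark cannot be told apart from weaning. The beta-cell list held 14 symbols, with Ero1b listed under an older symbol as well. Ins1 alone was not measured, and the 12 measured genes all lay above background on every array. The list mean was 9.98 ± 0.08 log2 units in weaned mice and 10.01 ± 0.05 in suckling mice (SD, n = 3 and n = 4). Markers of alpha cells (7.77 in weaned, 7.79 in suckling mice) and of delta and PP cells (8.65 and 8.66) were also present. Their hormone genes were bright in weaned and suckling mice, Gcg at 11.95 and 12.13, Sst at 11.80 and 12.01 and Ppy at 11.45 and 11.19. No fit used these lists as a covariate, and the part of alpha, delta and PP cells in the results was not tested. Acinar markers varied most, with a list mean between 3.63 and 5.85 in weaned mice, against 3.95 to 7.56 in suckling mice. All 12 acinar markers measured had a lower weaned mean, none past the test by limma; 7 lay above background on every array, Ptf1a was below it in both group means, and Cuzd1 averaged 2.87 in weaned and 3.43 in suckling mice. Suckling replicates 2 and 9 held the most acinar signal, and its part in the results was not tested beyond the values given with it as a covariate or without these arrays. Mesenchymal markers averaged 3.27 in weaned and 3.41 in suckling mice, with 5 of 12 above background in mean level; endothelial, Schwann and leukocyte lists lay at 3.16, 2.75 and 3.63 in weaned mice against 3.19, 2.83 and 3.69 in suckling mice. Ductal markers averaged 5.85 in weaned and 6.07 in suckling mice, with the highest list mean, 6.45, on suckling replicate 12. Some markers, named after their values were seen, were lower on every weaned array than on any suckling array. These were the ductal marker Muc1 (-0.65) and the mesenchymal markers Vim (-0.35), Rgs5 (-0.54, at background in both groups) and Col1a2 (-0.29). Each had an adjusted p above 0.5 by limma, and the groups did not overlap for 7.32% of all genes. Of the measured markers, 3 of 6 ductal and 3 of 12 mesenchymal ones had a higher weaned mean. Krt19 spanned 3.60 to 6.84 over the arrays. No fit used the ductal list as a covariate, and the part of ductal cells in the results was not tested. That of mesenchymal, endothelial, Schwann and leukocyte cells was not tested beyond a fit with their lists as a covariate. In sorted cells measured in bulk, fewer cells of a type and less RNA per cell cannot be told apart.

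No Wnt signalling gene separated the groups at an adjusted p of 0.05. By limma, 0 of 55 members passed after Benjamini-Hochberg adjustment over all genes, where 0.015% of all genes did, and the smallest adjusted p of a member was 0.511. An unadjusted p under 0.05 was reached by 6 members. Of these, 5 had a higher weaned mean (9.09% of members, where 4.39% of all genes did) and 1 a lower weaned mean (1.82%, where 3.19% of all genes did). Over all genes this split was 875 higher to 637 lower, and centring the arrays on their medians, with a median difference over all genes of 0.035, turned it into 1184 to 434, with 6 members higher and 1 lower. The 5 were the receptors Fzd6, Lrp5, Fzd2 and Ror1 and the nuclear factor Tcf7l2, and the 1 was the ligand Wnt2b. The groups of arrays did not overlap for 4 members, or 7.27%, beside 7.32% of all genes. The median difference of the members, weaned minus suckling, was 0.0058 log2 units, and that of all genes was 0.00047, with 28 members higher and 27 lower in mean. Without suckling replicates 2 and 9, the unadjusted count of members was 2 higher, Fzd2 and Fzd9, and 0 lower, while 482 of all genes were higher and 607 lower.

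The precision bounds what these arrays could show. A member's 95% interval reached a median of 0.32 log2 units to either side of its difference. For 42 of 55 members the whole interval lay within a 1.5-fold difference either way, and for 54 within 2-fold, Fzd6 being the exception. Over all genes it did so for 15192 of 19938 and for 19467. The members include 14 at background, 10 of them among the 42, for which an interval bounds the intensity and not necessarily a transcript.

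**Figure D1:**
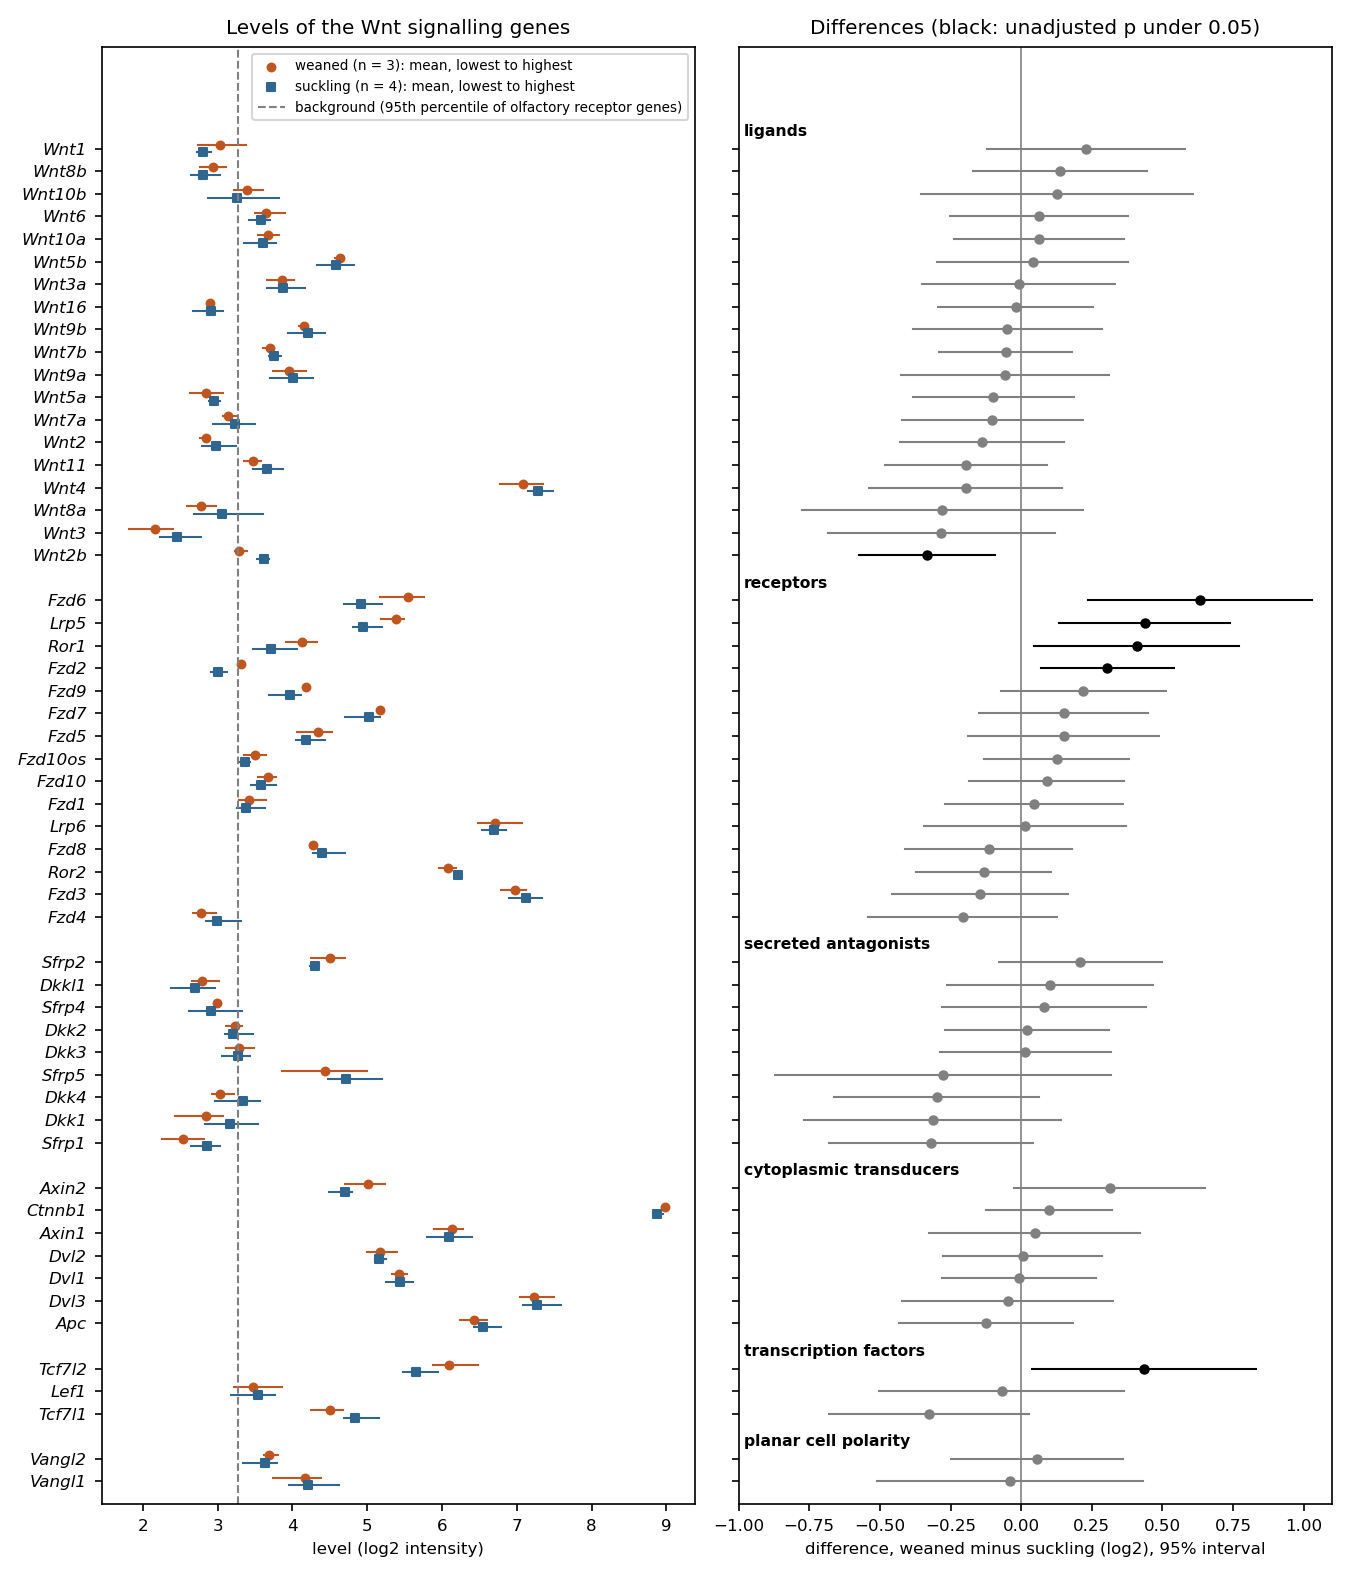
Left, the mean and the lowest to highest level of each of the 55 genes in log2 intensity, in weaned (circles, n = 3) and suckling mice (squares, n = 4), with background dashed at 3.27. Right, the difference, weaned minus suckling, with its 95% interval; the 6 genes in black have an unadjusted p under 0.05, 5 of them to the right of 0, and none passed after adjustment.

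Of 15 genes in the receptor class, Fzd10os counted among them, 11 had a higher and 4 a lower weaned mean, and the median difference was 0.13. An unadjusted p under 0.05 was reached by 4, each higher in mean, where 4.39% of all genes were, and without suckling replicates 2 and 9 by Fzd2 and Fzd9 alone. All but Fzd4 lay above background in at least 1 group mean. Fzd6, a Frizzled receptor known for orienting hair follicles in mouse skin, stood at 5.71, 5.17 and 5.76 log2 units in weaned mice, against 4.96, 4.69, 4.82 and 5.2 in suckling mice. Weaned replicate 5 lay just under suckling replicate 12, and the other two weaned arrays were above every suckling array. The difference was 0.63 (SE 0.18, 95% interval 0.23 to 1.03), or 1.55-fold, with an unadjusted p of 0.00558 and an adjusted p of 0.511 by limma. With 1 array left out it ran from 0.53 to 0.82, with the acinar list as a covariate it was 0.64, and without suckling replicates 2 and 9 it was 0.54 (unadjusted p = 0.0525, limma).

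Lrp5, a co-receptor that takes Wnt into the canonical branch and is known for its role in bone mass, stood at 5.48, 5.49 and 5.18 log2 units in weaned mice, against 4.89, 4.81, 4.89 and 5.19 in suckling mice. Only weaned replicate 12 and suckling replicate 12 met, within 0.01 of each other. The difference was 0.44 (SE 0.13, interval 0.13 to 0.74), with an adjusted p of 0.552 by limma. It was 0.33 with the acinar covariate and 0.34 without suckling replicates 2 and 9 (unadjusted p = 0.0804, limma). Its partner co-receptor Lrp6 stood at 7.07, 6.58 and 6.48 log2 units in weaned mice, against 6.86, 6.64, 6.53 and 6.76 in suckling mice. The groups of Lrp6 lay over each other, and its difference was 0.01 (interval -0.34 to 0.37). Whether Lrp5 and Lrp6 differed from each other in response was not tested.

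Fzd2, a Frizzled receptor, lay close to background at 3.28, 3.34 and 3.29 log2 units in weaned mice, against 3.12, 2.96, 3.0 and 2.91 in suckling mice. The groups did not overlap, but the suckling mean of 3.0 was below the background line and the weaned mean of 3.31 just above it. The difference was 0.31 (SE 0.10, adjusted p = 0.577, limma). Ror1, a receptor tyrosine kinase that binds Wnt5a, stood at 4.33, 4.14 and 3.92 in weaned mice, against 3.74, 3.47, 4.06 and 3.60 in suckling mice. Suckling replicate 11 reached into the weaned range, and the difference was 0.41 (SE 0.16, adjusted p = 0.634, limma). Of the 7 fits that left out 1 array, 2 kept an unadjusted p under 0.05 for Ror1, against 3 for Tcf7l2 and 7 for each of Fzd6, Lrp5, Fzd2 and Wnt2b.

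Ror2, the paralogue of Ror1 with the same kind of ligand, stood at 5.96, 6.19 and 6.09 log2 units in weaned mice, against 6.15, 6.24, 6.20 and 6.26 in suckling mice. Its difference was -0.13 (interval -0.37 to 0.11), on the other side of 0 from that of Ror1. Fzd3, which guides axons in the mouse brain, stood at 7.13, 7.0 and 6.78 in weaned mice, against 7.08, 7.15, 6.90 and 7.33 in suckling mice, a difference of -0.15 (interval -0.46 to 0.16). Weaned replicate 12 was the lowest array for Fzd3 and suckling replicate 12 the highest. Fzd9 was even on the weaned arrays, at 4.19, 4.2 and 4.17, and stood at 4.11, 4.11, 3.96 and 3.68 on the suckling arrays, so the groups did not overlap. Its difference was 0.22 (unadjusted p = 0.123 and adjusted p = 0.733, limma), and suckling replicate 12 was the lowest array. Fzd7 stood at 5.17, 5.16 and 5.18 in weaned mice, against 5.09, 4.70, 5.12 and 5.17 in suckling mice, a difference of 0.15. Fzd10os stood at 3.65, 3.48 and 3.35 in weaned mice, against 3.44, 3.33, 3.41 and 3.29 in suckling mice, and Fzd10 itself averaged 3.67 and 3.58, with overlap in both. Fzd1, Fzd5 and Fzd8 had differences of 0.05, 0.15 and -0.12, and Fzd4, at background in both groups, of -0.21.

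**Figure D2:**
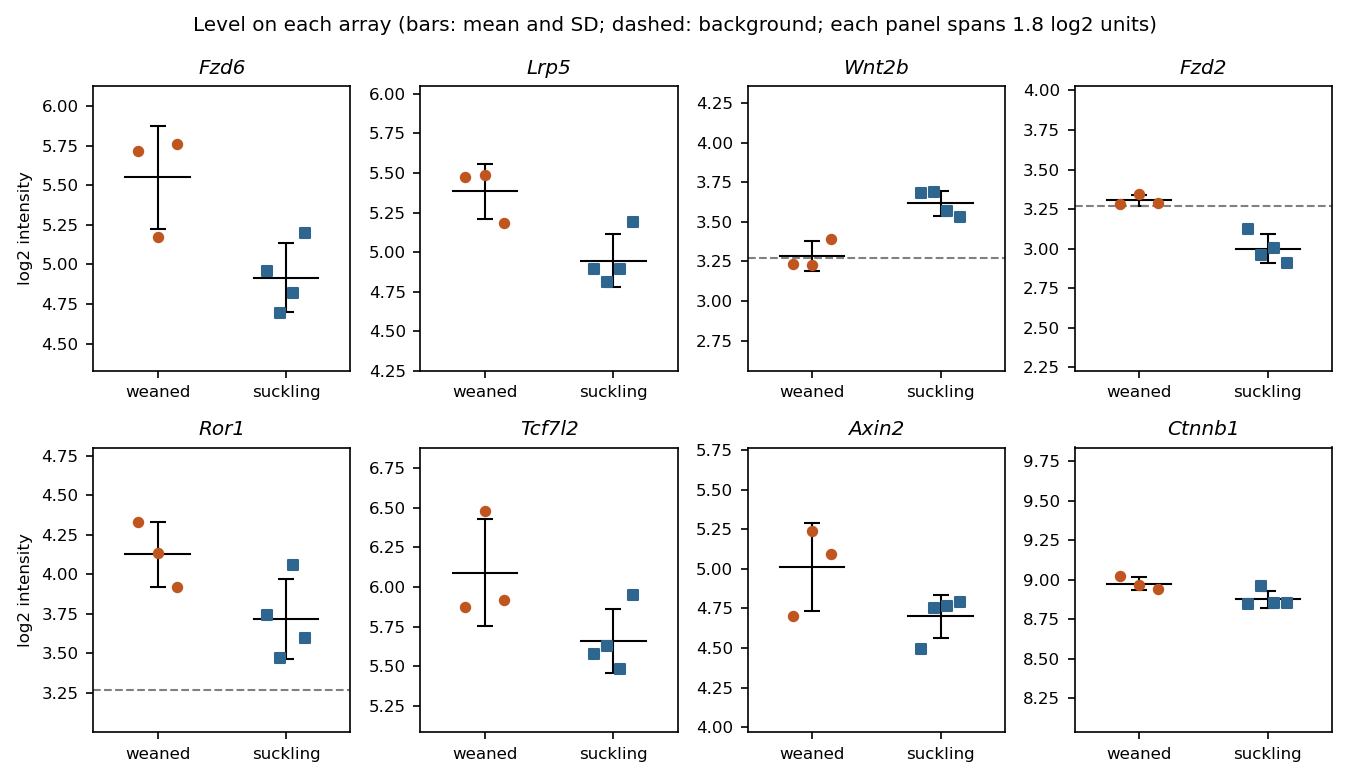
Level of 8 Wnt signalling genes on each array in log2 intensity, weaned mice (circles, n = 3) left of suckling mice (squares, n = 4), with the mean and SD as bars and background dashed where it falls in the panel. The groups are apart for Wnt2b, lower in weaned mice, and for Fzd2, higher in weaned mice near background; in the other panels at least 1 array overlaps.

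Among the 19 ligands, 6 had a higher and 13 a lower weaned mean, with a median difference of -0.05. Both group means of 8 ligands were at background, those of Wnt1, Wnt2, Wnt3, Wnt5a, Wnt7a, Wnt8a, Wnt8b and Wnt16, and 10 were above it in both groups. Wnt2b, a ligand of the canonical branch, stood at 3.23, 3.23 and 3.39 log2 units in weaned mice, against 3.68, 3.69, 3.57 and 3.53 in suckling mice. Every suckling array was above every weaned array, and the weaned mean of 3.28 lay just above the background line. The difference was -0.33 (SE 0.11, interval -0.57 to -0.09, adjusted p = 0.552, limma). It was -0.26 with the acinar covariate and -0.27 without suckling replicates 2 and 9, each with an unadjusted p above 0.05.

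Wnt4, a ligand needed for kidney and gonad development that islet cells also make, was measured by both of its probe sets well above background. The brighter one stood at 6.78, 7.13 and 7.35 log2 units in weaned mice, against 7.25, 7.15, 7.23 and 7.48 in suckling mice, a difference of -0.20 (interval -0.54 to 0.15), or -0.04 without weaned replicate 4. The other stood at 6.94, 6.67 and 6.6 in weaned mice, against 6.73, 6.88, 6.80 and 7.19 in suckling mice, a difference of -0.16. The probe sets had weaned means below suckling means alike but ordered the weaned arrays oppositely, replicate 4 being the lowest by one and the highest by the other. Wnt5b, a ligand linked to cell movement, stood at 4.57, 4.63 and 4.69 in weaned mice, against 4.82, 4.33, 4.81 and 4.39 in suckling mice, a difference of 0.04 (interval -0.30 to 0.38). Wnt9b, a ligand of kidney tubule development, stood at 4.09, 4.2 and 4.18 in weaned mice, against 4.41, 4.44, 4.04 and 3.94 in suckling mice, a difference of -0.05. In both genes the suckling arrays spread to either side of the weaned ones.

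Wnt11, a ligand of the polarity branch, stood at 3.35, 3.58 and 3.47 log2 units in weaned mice, against 3.68, 3.48, 3.88 and 3.61 in suckling mice, a difference of -0.20 (interval -0.48 to 0.09). The remaining ligands above background in a group mean, Wnt3a, Wnt6, Wnt7b, Wnt9a, Wnt10a and Wnt10b, had differences of -0.06 to 0.13. In the RefSeq gene order, 8 ligands form 4 pairs of next neighbours among protein-coding genes, Wnt6 with Wnt10a, Wnt3a with Wnt9a, Wnt9b with Wnt3 and Wnt10b with Wnt1. Their differences were 0.06 and 0.06, -0.01 and -0.06, -0.05 and -0.28, and 0.13 and 0.23, with each of the 8 intervals including 0 and with Wnt3 and Wnt1 at background.

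The secreted antagonists were mostly dim, 5 of 9 being at background in both groups. Sfrp proteins bind Wnt ligands, and Dkk proteins such as Dkk1 bind Lrp5 and Lrp6. With 5 higher and 4 lower in mean and a median difference of 0.01, no antagonist had an unadjusted p under 0.05. Sfrp5, which is also made by fat tissue, spread the most of all 55 members, at 3.87, 5.00 and 4.44 log2 units in weaned mice, against 4.55, 4.48, 4.63 and 5.2 in suckling mice. Its lowest and highest arrays were 1.33 log2 units apart, and its difference was -0.28 (interval -0.87 to 0.32). Sfrp2 stood at 4.25, 4.56 and 4.71 in weaned mice, against 4.26, 4.34, 4.23 and 4.35 in suckling mice, a difference of 0.21 (interval -0.08 to 0.50). Weaned replicate 4 of Sfrp2 lay among the suckling arrays and the other two above them.

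Dkk4 stood at 2.93, 3.22 and 2.96 log2 units in weaned mice, against 3.57, 3.29, 3.51 and 2.97 in suckling mice, a difference of -0.30 (adjusted p = 0.705, limma), with the weaned mean at background. Dkk3, a divergent member of its family, stood at 3.11, 3.25 and 3.49 in weaned mice, against 3.06, 3.32, 3.43 and 3.28 in suckling mice, a difference of 0.01. Both genes sat near the background line. Sfrp1 and Dkk1 had differences of -0.32 and -0.31 with both group means at background, and Sfrp4, Dkk2 and Dkkl1 of 0.02 to 0.10.

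The cytoplasmic transducers were all above background in both groups. Of 7 genes 4 had a higher and 3 a lower weaned mean, the median difference was 0.0058, and no transducer had an unadjusted p under 0.05. Ctnnb1, which encodes beta-catenin, stood at 9.02, 8.96 and 8.94 log2 units in weaned mice, against 8.85, 8.96, 8.85 and 8.85 in suckling mice. Its difference was 0.10 (SE 0.10, interval -0.13 to 0.32, adjusted p = 0.855, limma), and its 7 arrays lay within 0.17 log2 units, the smallest range of any member. Apc, the scaffold of the destruction complex, stood at 6.6, 6.43 and 6.23 in weaned mice, against 6.54, 6.44, 6.42 and 6.79 in suckling mice, a difference of -0.12. Axin1, the other scaffold, stood at 6.28, 5.89 and 6.25 in weaned mice, against 5.80, 5.99, 6.41 and 6.17 in suckling mice, a difference of 0.05 whose sign turned with the processing. The intervals of Ctnnb1, Apc and Axin1 all lay within a 1.5-fold difference either way.

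Axin2, an axin paralogue and a widely used readout of the canonical branch because beta-catenin switches it on, stood at 4.70, 5.24 and 5.10 log2 units in weaned mice, against 4.49, 4.75, 4.76 and 4.79 in suckling mice. Weaned replicates 5 and 12 were above every suckling array, and weaned replicate 4 was below 3 of the 4. The difference was 0.31 (SE 0.15, interval -0.02 to 0.65), with an unadjusted p of 0.0653 and an adjusted p of 0.675 by limma. It ran from 0.20 to 0.47 with 1 array left out, and was 0.28 with the acinar covariate and 0.24 without suckling replicates 2 and 9, which include its lowest array. The unadjusted p of Axin2 by limma was under 0.05 with centred arrays (difference 0.35), with array weights and without weaned replicate 4. It was above 0.05 with either covariate, with quantile normalization and without suckling replicates 2 and 9. The Dishevelled genes, whose products carry the signal from Frizzled receptors into the cell, showed differences near 0. Dvl1 and Dvl2 were at -0.0068 and 0.0058, and Dvl3 stood at 7.04, 7.5 and 7.14 in weaned mice, against 7.08, 7.33, 7.09 and 7.60 in suckling mice, a difference of -0.05.

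Of the 3 nuclear factors, Tcf7l2 and Tcf7l1 lay on opposite sides of 0. Tcf7l2, the TCF factor known from diabetes genetics, stood at 5.87, 6.48 and 5.92 log2 units in weaned mice, against 5.57, 5.63, 5.48 and 5.95 in suckling mice. Weaned replicate 5 was the highest array and suckling replicate 12 overlapped the other two. The difference was 0.43 (SE 0.18, interval 0.04 to 0.83, adjusted p = 0.638, limma), and 0.24 without weaned replicate 5. It was 0.37 with the acinar covariate and 0.38 without suckling replicates 2 and 9, each with an unadjusted p above 0.05. Tcf7l1, a family member that mostly represses its targets, stood at 4.60, 4.24 and 4.68 in weaned mice, against 4.77, 4.69, 4.72 and 5.15 in suckling mice. Its groups came close without overlapping, and its difference was -0.33 (SE 0.16, unadjusted p = 0.0664 and adjusted p = 0.675, limma), or -0.20 without weaned replicate 5. Lef1 stood at 3.35, 3.22 and 3.86 in weaned mice, against 3.71, 3.77, 3.53 and 3.17 in suckling mice, with the groups over each other and a difference of -0.07. Whether Tcf7l2 and Tcf7l1 differed from each other in response was not tested.

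The promoters of Axin2 and Tcf7l2 are shown because they are the transducer and the nuclear factor with the smallest p, and those of Wnt5b and Wnt11 because they hold the TCF/LEF core motif. The motif searched was CTTTGAT on either strand, in the 250 bases before each start in the RefSeq promoter table (GRCm38.p6), where 37 of 55 members had an entry. It occurred in 2 of these 37 genes (5.41%), beside 3.72% of all genes in the table. Sequences run 5′ to 3′ on the gene's strand and the motif, or its reverse complement, is in capitals. The Axin2 window is chr11:108920099-108920348 on the plus strand, the Tcf7l2 window, before its first start, chr19:55741560-55741809 on the plus strand. The Wnt5b stretch of 30 bases is chr6:119449440-119449469 on the minus strand, and the Wnt11 stretch chr7:98835049-98835078 on the plus strand.
Axin2: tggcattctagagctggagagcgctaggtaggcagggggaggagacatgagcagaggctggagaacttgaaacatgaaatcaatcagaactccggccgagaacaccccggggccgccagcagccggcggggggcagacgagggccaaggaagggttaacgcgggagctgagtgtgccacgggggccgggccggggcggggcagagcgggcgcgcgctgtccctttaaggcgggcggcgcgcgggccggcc
Tcf7l2: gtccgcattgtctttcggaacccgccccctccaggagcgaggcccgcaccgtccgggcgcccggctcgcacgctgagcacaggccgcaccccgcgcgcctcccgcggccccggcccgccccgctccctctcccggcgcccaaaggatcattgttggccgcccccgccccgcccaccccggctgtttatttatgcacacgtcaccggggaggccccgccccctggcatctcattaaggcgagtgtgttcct
Wnt5b: gagtaagtctctCTTTGATctgctccctgt
Wnt11: tgacgtgggcggATCAAAGcgacggtccgc
The windows of Axin2 and Tcf7l2 hold no copy of these letters, and the motif's first base is at -71 from the start in Wnt5b and at -51 in Wnt11. A match is a description of these letters and not of binding. Both ligands with the motif had intervals that include 0, at 0.04 and -0.20.

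The polarity genes Vangl1 and Vangl2, membrane proteins that give cells an orientation within a sheet, had differences within the spread of the arrays. Vangl1 stood at 3.74, 4.38 and 4.36 log2 units in weaned mice, against 3.96, 4.25, 3.98 and 4.62 in suckling mice, a difference of -0.04 (interval -0.51 to 0.43). Vangl2 stood at 3.65, 3.8 and 3.62 in weaned mice, against 3.8, 3.74, 3.67 and 3.34 in suckling mice, a difference of 0.06 (interval -0.25 to 0.36). Cfap126, also called Flattop, which acts downstream of polarity signals and marks a mature subset of mouse beta cells, stood at 6.04, 6.52 and 6.16 in weaned mice, against 5.95, 5.86, 6.16 and 5.92 in suckling mice. Suckling replicate 11 overlapped the weaned arrays, and the difference was 0.27 (SE 0.14, interval -0.05 to 0.59, adjusted p = 0.698, limma), or 0.13 without weaned replicate 5.

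Beyond the members, 139 other genes of the pathway were measured, and none of these passed an adjusted p of 0.05 by limma. At an unadjusted p under 0.05 there were 7 higher (5.04%) and 2 lower (1.44%), shares near or below the 4.39% and 3.19% of all genes, and the median difference was 0.01. Lgr4, a receptor of R-spondins that keeps Frizzled receptors at the cell surface, stood at 5.50, 5.87 and 5.50 log2 units in weaned mice, against 4.46, 5.21, 5.02 and 5.21 in suckling mice. The groups did not overlap, and the difference was 0.65 (SE 0.20, interval 0.21 to 1.09, adjusted p = 0.544, limma). It was 0.41 with the mesenchymal, endothelial, Schwann and leukocyte lists as a covariate (unadjusted p = 0.0629, limma). Of 8 genes for receptor turnover, 3 had a higher and 5 a lower weaned mean, Lgr4 alone had an unadjusted p under 0.05, and Lgr5 lay at background in both groups. Of 18 extracellular modulators 2 did, Kremen1, which binds Dkk proteins and takes Lrp6 off the surface, at 0.36 and Gpc3, a glypican at background in both groups, at 0.36 (0.20 without weaned replicate 4). With either covariate, both had an unadjusted p above 0.05, as had Kremen1 without suckling replicates 2 and 9.

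Among 29 target genes of beta-catenin outside the members, and so without Axin2, 16 had a higher and 13 a lower weaned mean. Over all genes, 7.58% had an unadjusted p under 0.05 in either direction. The only one of the 29 that did (3.45%) was lower. This was Cd44, a hyaluronan receptor and known target in intestinal tumours, at 5.13, 5.38 and 5.15 log2 units in weaned mice, against 5.57, 6.0, 5.84 and 5.89 in suckling mice. Every suckling array was above every weaned array, and the difference was -0.60 (SE 0.13, interval -0.90 to -0.30, adjusted p = 0.343, limma). The cyclin genes Ccnd1 and Ccnd2 had differences of 0.0034 and 0.07, Myc of 0.15 (interval -0.44 to 0.74) and Sox9, a duct and progenitor factor, of 0.12. Of the destruction complex list, Frat2, an inhibitor of GSK3, had a difference of 0.35 and Cxxc4, an inhibitor of Dishevelled, of 0.28. These 2 of 29 (6.90%) had an unadjusted p under 0.05, where 7.58% of all genes did, and 27 had one above it. Frat2 was 0.22 without weaned replicate 12. Without suckling replicates 2 and 9, both Frat2 and Cxxc4 had an unadjusted p above 0.05, as had Cxxc4 with either covariate. Gsk3b, the kinase that marks beta-catenin, averaged 7.15 ± 0.03 in weaned and 7.18 ± 0.19 in suckling mice (SD, n = 3 and n = 4), a difference of -0.03. No nuclear partner of beta-catenin among 23 had an unadjusted p under 0.05. In the polarity and calcium branch 3 of 38 did, or 7.89%, near the 7.58% of all genes. The 3 were the transcription factors Nfatc2 at 0.30 and Nfatc1 at 0.45, and the kinase gene Camk2a at -0.30, with its weaned mean at background. Nfatc2 and Nfatc1 had an unadjusted p above 0.05 with either covariate and without suckling replicates 2 and 9, and Camk2a with the acinar covariate only. Nfatc1 was 0.29 without suckling replicate 2 and 0.29 without both suckling replicates 2 and 9. It was 0.24 when the lists of non-islet cells other than acinar and ductal were the covariate.

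**Figure D3:**
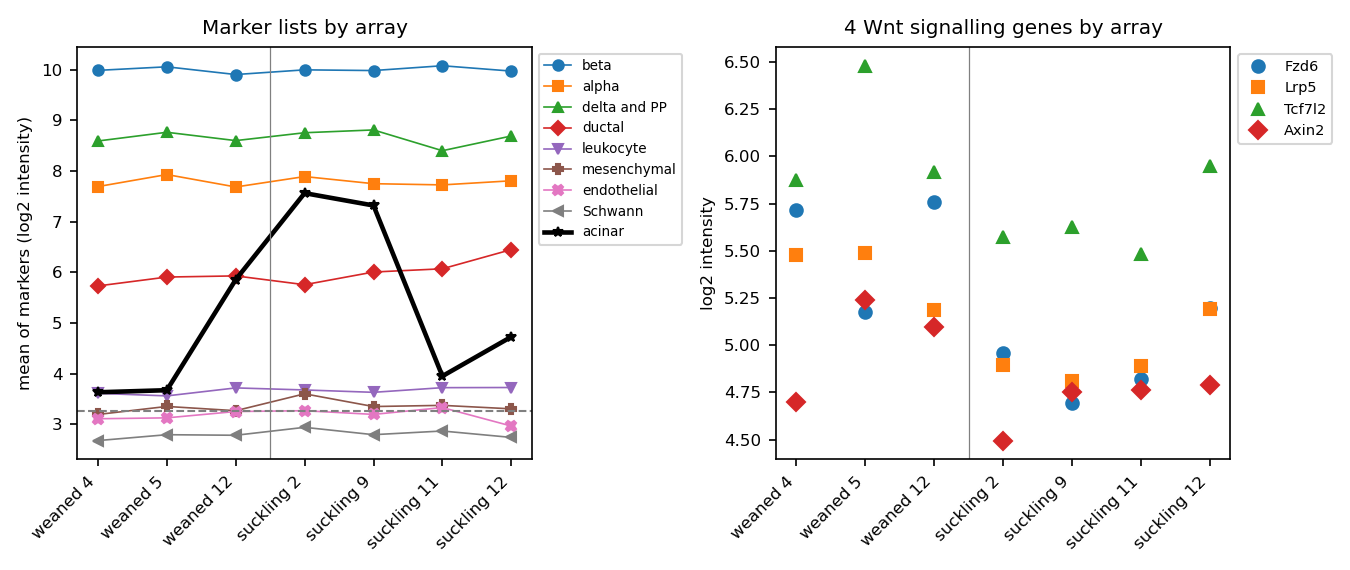
Left, the mean log2 intensity of each list of cell type markers on the 3 weaned and 4 suckling arrays, with background dashed; the acinar list (thick line) runs from 3.63 to 7.56 while the beta list stays near 10. Right, Fzd6, Lrp5, Tcf7l2 and Axin2 on the same arrays in log2 intensity.

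The acinar list moved across the arrays more than any member did. With that list as a covariate Ror1 was 0.26, while Fzd2 (0.33) and Fzd6 (0.64) were as large as without it. The other-cell covariate joined the mesenchymal, endothelial, Schwann and leukocyte lists, without the ductal list. With it, Fzd6 was 0.58, Fzd2 0.37, Ror1 0.45, Lrp5 0.32, Tcf7l2 0.32 and Wnt2b -0.28. An unadjusted p under 0.05 was kept by Fzd6, Lrp5 and Fzd2 with the acinar covariate, where Wnt1 and Dkkl1, both at background, reached it too, and by Fzd6 and Fzd2 with the other.

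**Figure D4:**
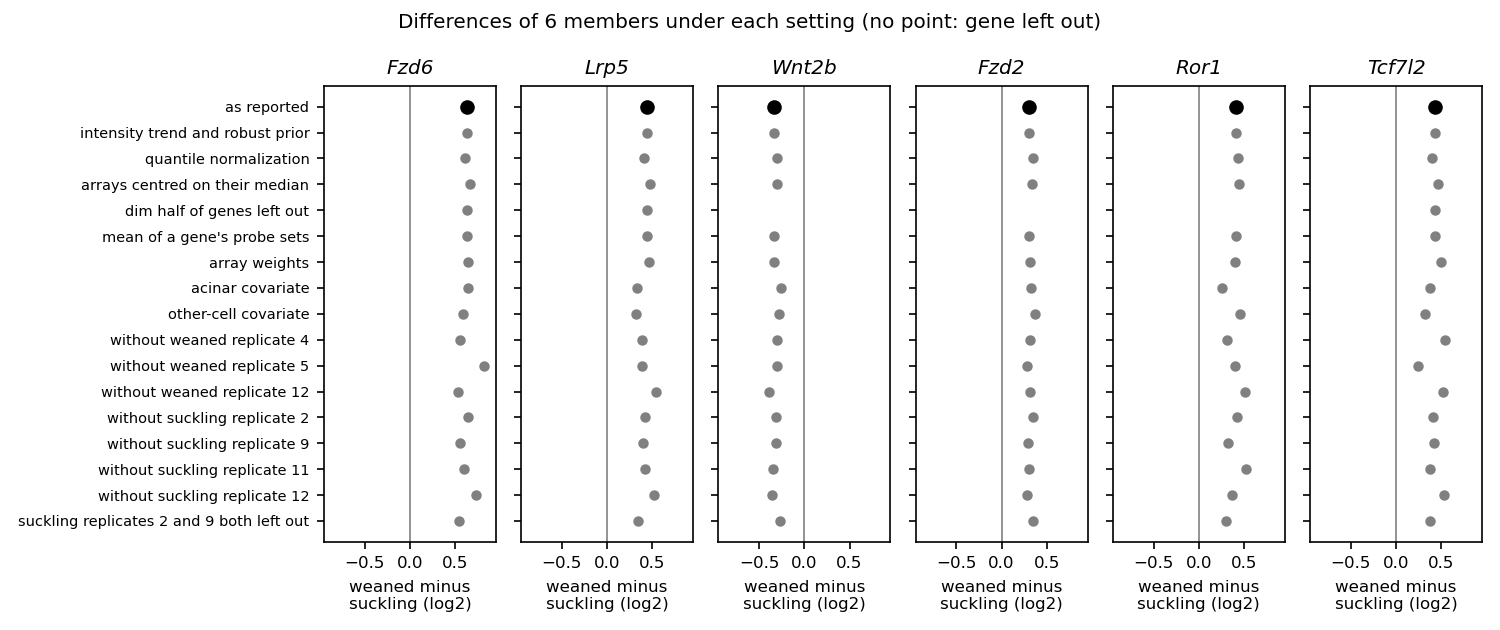
Difference, weaned minus suckling in log2 units, of the 6 genes with an unadjusted p under 0.05, as reported (black, top) and under each alternative (grey). Every point of a gene lies on the same side of 0; Wnt2b, Fzd2 and Ror1 have no point where dim genes were left out.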

How the data were processed

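The deposited intensity values, 1 per probe set and array, were made by the authors with RMA and Partek 6.6, the tools named per the submitters' processing notes without order or settings. RMA draws small differences of dim probe sets towards 0. Here log2 was taken. Of 35556 probe sets, 21789 carry 1 symbol, and the brightest one stood for a gene, leaving 19938 genes. The genome build behind the array annotation is not stated in these sources.

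Groups were compared with limma 3.58.1 (lmFit and eBayes, R 4.3.3) over all genes, without covariates, two-sided, with Benjamini-Hochberg adjustment. The fit was checked on simulated data with independent normal errors, which cannot show how it behaves with acinar signal shared between genes. Each mouse was 1 biological repetition per the labels' protocols. Levels on every array are given for members named by a fixed rule, the 16 smallest p values above background, a core set, and the 3 brightest of each role; the other pathway genes named had an unadjusted p under 0.05 or belonged to a core set. Members, lists and rules were chosen with earlier results of these data known. The alternatives tried were a robust prior with intensity trend, median centring, quantile normalization, a filter on dim genes, other uses of probe sets, array weights, both covariates and leaving out arrays.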

Additional observations from a re-analysis of the deposited data

Results flagged for a closer look

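In the suckling group, 5 of 71 genes had 1 array far from the other 3 by Dixon's criterion, which sets the array's gap to its nearest neighbour against the group's range, where chance gives about 1 in 20. Ctnnb1 stood at 8.96 on suckling replicate 9, against 8.85 on each of the others (gap 0.978 of the range), a gap that is small in log2 units. Fzd8 stood at 4.70 on suckling replicate 11, with the others at 4.27 to 4.31 (0.917), suckling replicates 9 and 12 and weaned replicates 4 and 12 having the identical value, and Dkk2 at 3.48 on the same array, with the others at 3.10 to 3.14 (0.882). Axin2 stood at 4.49 on suckling replicate 2, with the others at 4.75 to 4.79 (0.866). Fzd7 stood at 4.70 on suckling replicate 9, with the others at 5.09 to 5.17 (0.834). Suckling replicates 2 and 9 are the arrays with the most acinar signal, whose part in these values was not tested.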

How the results depend on the processing

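No paired analysis was run because the sample labels name no pairs of mice. In all 17 alternatives 0 members passed by limma, the lowest adjusted p of a named gene being 0.187. The count over all genes, 3 as reported, was 9 with an intensity trend, 5 with quantile normalization, 6 with centred arrays, 8 without the dimmer genes, 5 with probe sets averaged, 9 over all probe sets, 0 without suckling replicates 2 and 9 (chosen after seeing the data) and 1 to 3 with 1 array left out. Members with an unadjusted p under 0.05 and a higher weaned mean numbered 3 without the dimmer genes, 2 with the other-cell covariate, 2 without suckling replicates 2 and 9, and 3 to 6 with 1 array left out. Those lower numbered 2 with quantile normalization, 0 without the dimmer genes, with either covariate or without suckling replicates 2 and 9, and 1 to 2 with 1 array left out. The members' median was 0.040 with centred arrays, 0.028 with the other-cell covariate and -0.019 to 0.030 with 1 array left out; that of the other pathway genes was 0.0091 to 0.053. The causes were not tested.

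Of 45 named genes 30 kept their direction throughout. The other 15, Sfrp5 (-0.28), Myc (0.15) and Sox9 (0.12) among them, changed sign under at least 1 alternative: Lrp6 -0.016 and Ccnd1 -0.0017 with quantile normalization; Gsk3b 0.0080 with centred arrays; Axin1 -1.38e-05, Vangl1 0.018 and Ccnd1 -0.013 with array weights. With the acinar covariate, Axin1 was -0.076, Wnt9b 0.11, Dkk3 -0.0011, Lef1 0.15, Ccnd1 -0.051 and Ccnd2 -0.021. With the other-cell covariate, Axin1 was -0.011, Wnt9b 0.053, Lrp6 -0.067, Lef1 0.13, Ccnd1 -0.0027 and Ccnd2 -0.019. Without suckling replicates 2 and 9, Axin1 was -0.15, Wnt9b 0.17, Dkk3 -0.067, Lef1 0.13 and Ccnd1 -0.12. With 1 array left out, the ranges were -0.050 to 0.17 for Axin1, -0.083 to 0.069 for Ccnd1, -0.089 to 0.10 for Dkk3, -0.18 to 0.060 for Dvl3, -0.11 to 0.042 for Gsk3b, -0.26 to 0.059 for Lef1, -0.17 to 0.13 for Lrp6, -0.080 to 0.36 for Myc, -0.56 to 0.0086 for Sfrp5, -0.033 to 0.34 for Sox9, -0.15 to 0.17 for Vangl1, -0.044 to 0.11 for Vangl2, -0.045 to 0.12 for Wnt5b and -0.14 to 0.028 for Wnt9b.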
